A study of Mus musculus with 12 samples.

Results

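The genes described here are 9 members of the coagulation and fibrinolysis systems, F3, F5, F7, F10, Tfpi, Plau, Plaur, Serpinb2 and Thbs1. They were taken by gene name from a table of raw read counts per gene that holds 53801 genes. Each name stood on 1 row, and all 9 were among the 35674 genes with enough counts to be tested. The libraries are bulk RNA-seq of P2RY12+ cells, collected with magnetic beads from 1 brain hemisphere 72 h after a 60 min occlusion of the left middle cerebral artery (tMCAO, a model of ischemic stroke with reperfusion). The ipsilateral hemisphere (IL) is the stroke side and the contralateral hemisphere (CL) is the non-lesion side of operated mice, so no library comes from an unoperated brain. cKO mice (KO in the labels) were Cx3cr1-CreER+/-;Nhe1 f/f, in which tamoxifen removes Nhe1 from cells that express Cx3cr1. WT mice were Cx3cr1-CreER+/- without the floxed alleles, so both genotypes carry the Cre driver. Both had been given tamoxifen at 75 mg/kg a day for 5 days, with a wait of 30 days before the occlusion. The mice were of both sexes and 2 to 3 months old. Cx3cr1 is also active in other myeloid cells, including monocytes and macrophages, so the driver is not limited to microglia. The paper states that the wait served to clear tamoxifen and to let such monocytes be replaced before the occlusion. It reasons that these blood-derived cells renew themselves in that time, while microglia do not. Whether any monocytes in these libraries kept Nhe1 was not tested.

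The paper isolated cells from both hemispheres of the brains and gives 3 animals, so an IL and a CL library can come from 1 mouse. There were 3 libraries in each group. They held 44907863, 47256174 and 43961276 counts in cKO IL, 18425180, 25166928 and 23087202 counts in WT IL, 9743603, 16937855 and 20349883 counts in cKO CL, and 12647526, 5155202 and 2091512 counts in WT CL. Values of a group are given below in this order of libraries, as CPM (counts scaled to library size, with TMM factors), and a library is named by its total where it stands apart. The microglial genes P2ry12 (84.9 to 541 CPM), Tmem119 (200 to 734 CPM) and Cx3cr1 (336 to 7240 CPM) were detected in all 12 libraries. The genotypes rest on the labels. Over all tested genes, the WT IL library of 18425180 counts was nearer to the mean of cKO CL than to the other WT IL libraries (root mean square distance 1.37 against 1.55 on the log2 CPM scale), and the WT CL library of 12647526 counts was nearer to the mean of WT IL than to the other WT CL libraries (2.05 against 2.51). These libraries carry the same number in the column names, and whether their hemispheres were exchanged was not tested. A further 3 libraries were nearer to the other genotype of their hemisphere than to their own group, the cKO IL library of 44907863 counts (0.95 against 1.08), the WT IL library of 23087202 counts (1.26 against 1.99) and the WT CL library of 5155202 counts (1.19 against 2.42).

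Clotting starts when tissue factor, encoded by F3, meets factor VII of the plasma, and the complex activates factor X. Activated factor X, with activated factor V as its cofactor, turns prothrombin into thrombin, which makes fibrin, and tissue factor pathway inhibitor, encoded by Tfpi, blocks the first steps. Fibrin is removed by plasmin, which urokinase (Plau) releases from plasminogen at the cell surface while bound to its receptor (Plaur), and Serpinb2 encodes an inhibitor of urokinase. Thrombospondin-1, encoded by Thbs1, is an adhesive glycoprotein of platelet granules and of the extracellular matrix that activated macrophages also make. Macrophages can make tissue factor, factor VII, factor X and the urokinase receptor, while the liver supplies most of the plasma factors VII and X.

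Of the 4 members that passed the test in IL over CL in at least 1 genotype (Thbs1, Plaur, F10 and F7), 3 had an entry in the RefSeq promoter table for GRCm38.p6, which holds 250 bases before to 50 bases after the annotated start. Those 3 windows are shown because these members passed the test together. Capitals mark matches on either strand to 3 motifs, TGANTCA (AP-1), GGG and CC with any 5 bases between them (NF-kB) and NACGTG (the core of the hypoxia response element), and positions were read on the + strand. The windows are chr7:24462233-24462532 (+ strand) for Plaur, chr8:13037058-13037357 (+ strand) for F10 and chr8:13025784-13026083 (+ strand) for F7.
Plaur promoter: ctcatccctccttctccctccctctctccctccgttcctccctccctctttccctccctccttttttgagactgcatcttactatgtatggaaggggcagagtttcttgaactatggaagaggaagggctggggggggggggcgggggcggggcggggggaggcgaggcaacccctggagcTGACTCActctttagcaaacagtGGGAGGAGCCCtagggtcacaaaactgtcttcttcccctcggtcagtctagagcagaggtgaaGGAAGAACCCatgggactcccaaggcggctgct
F10 promoter: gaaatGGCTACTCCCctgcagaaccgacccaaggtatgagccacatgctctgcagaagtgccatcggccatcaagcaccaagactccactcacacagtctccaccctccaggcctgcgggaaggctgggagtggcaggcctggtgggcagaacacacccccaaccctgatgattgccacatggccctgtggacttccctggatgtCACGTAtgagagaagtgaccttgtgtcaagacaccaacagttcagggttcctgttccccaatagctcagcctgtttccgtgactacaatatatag
F7 promoter: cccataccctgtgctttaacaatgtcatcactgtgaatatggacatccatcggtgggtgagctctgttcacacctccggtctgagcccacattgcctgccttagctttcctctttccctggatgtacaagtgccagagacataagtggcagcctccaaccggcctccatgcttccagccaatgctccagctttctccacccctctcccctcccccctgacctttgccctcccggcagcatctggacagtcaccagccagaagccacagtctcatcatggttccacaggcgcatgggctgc
The Plaur window held 1 AP-1 match, 69 bases before the start, and 3 NF-kB matches, of which 2 overlap each other on opposite strands. The F10 window held 1 NF-kB match and 1 match to the hypoxia core, 45 bases before the start. The F7 window held 0 matches to the 3 motifs. Of all 32851 promoter windows in the table, 7.81% held the AP-1 motif, 50.8% the NF-kB motif and 19.6% the hypoxia core, so the NF-kB letters are common. A match is a description of the letters in these windows only. F7 (chr8:13026034-13035809, + strand) and F10 (chr8:13037308-13056676, + strand) are neighbours in GENCODE vM21 (GRCm38), with 1498 bases and 0 annotated genes between them, and no annotated gene overlaps either.

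Thbs1, F10 and Plaur were higher in IL than in CL in both genotypes and F7 was higher in cKO, and in IL the mean level of Thbs1 was above that of each other member. In cKO, 4 of the 9 members rose in IL over CL (F7, F10, Plaur and Thbs1) and 0 fell, where 2.94% of all tested genes rose and 0.513% fell. In WT, 3 rose (F10, Plaur and Thbs1) and 0 fell, where 0.538% of all tested genes rose and 0.0701% fell. The calls are from edgeR's quasi-likelihood test with Benjamini-Hochberg adjustment over all tested genes (two-sided, adjusted p under 0.05). This fit took the 12 libraries as independent. With the number in the column names as a block, 0 members were called in WT and the same 4 in cKO. The same counts were found with voom quality weights (limma). The median log2 fold change of the 9 members was 1.13 in cKO and 1.48 in WT, beside medians over all tested genes of -1.33 in cKO and -0.31 in WT. Many tested genes had few counts, and the contrast was smaller among the 10437 genes with at least 10 counts in every library. There 4 of 7 members rose in cKO and 3 in WT. Of all genes in that fit, 27.6% were called in cKO and 10.2% in WT, in either direction (1254 and 406 higher). Their median log2 fold change was -0.04 in both genotypes. By the study's thresholds (fold change over 2 with p under 0.05 before adjustment) 4 members passed in cKO, where 23.8% of all tested genes did, and 6 in WT, where 18.0% did. 5 members in cKO had every IL library above every CL library (18.5% of all tested genes did), and 3 members in WT (10.3% did).

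**Figure D1:**
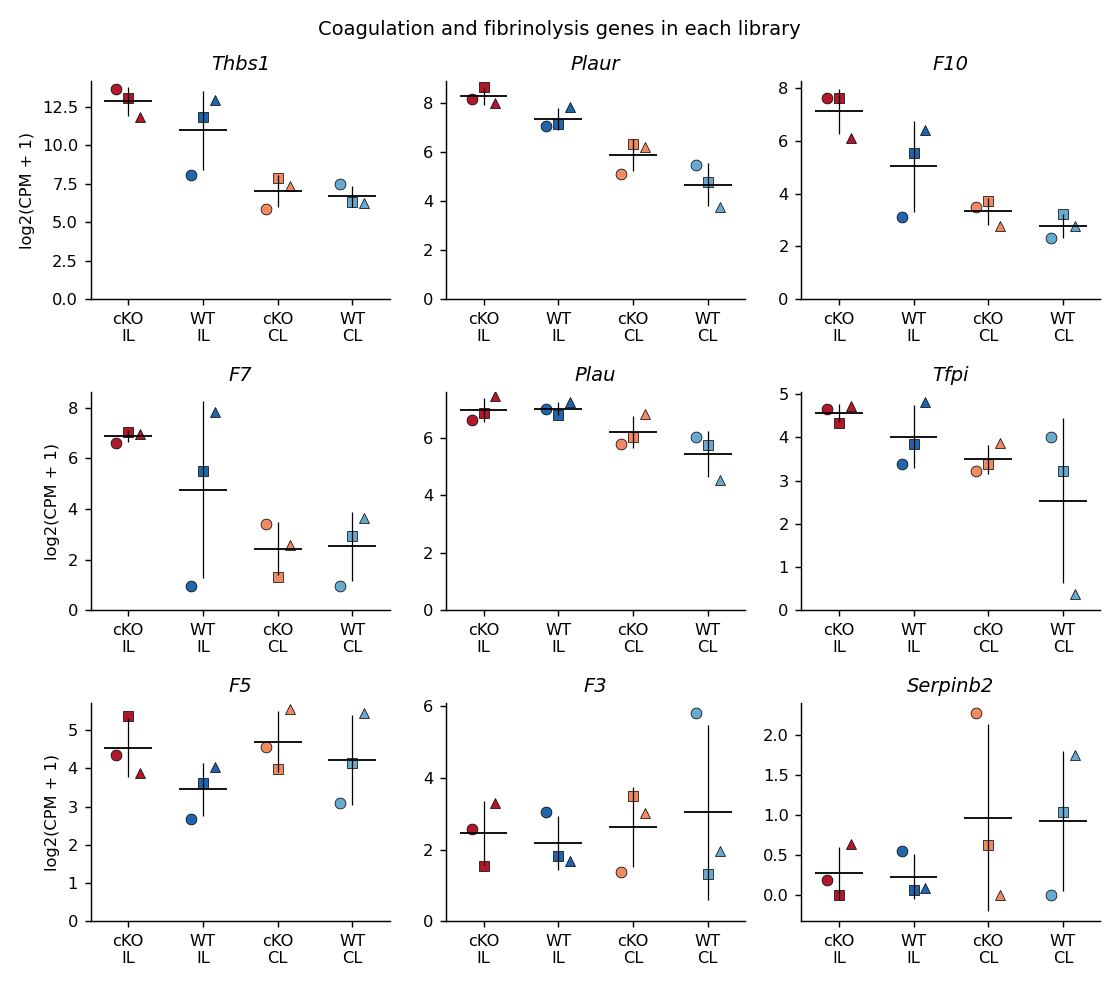
Levels of the 9 members in each library, as log2(CPM + 1), in cKO IL, WT IL, cKO CL and WT CL. Each point is 1 library (circle, square and triangle follow the order of the totals given in the text), the horizontal bar is the mean of the 3 points and the vertical line is 1 SD. Thbs1 reaches 13028 CPM in cKO IL, and the lowest WT IL point of Thbs1, F10 and F7 is the same library.

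Thbs1 (chr2:118111876-118127133, + strand) had the highest mean level of the members in IL of both genotypes. It was measured at 13028, 8637 and 3679 CPM in cKO IL against 56.3, 234 and 161 CPM in cKO CL. It was at 271, 3761 and 8132 CPM in WT IL against 178, 77.5 and 76.0 CPM in WT CL. In both genotypes every IL library lay above every CL library, but the WT IL library of 18425180 counts, at 271 CPM, lay far closer to the CL libraries than to the other WT IL libraries. The log2 fold change of IL over CL was 5.81 ± 0.74 in cKO (SE, adjusted p = 0.0087, edgeR) and 5.19 ± 0.74 in WT (SE, adjusted p = 0.0196, edgeR), which are 56.2-fold and 36.6-fold. Ranked by CPM per kb of exon, Thbs1 stood at positions 16, 19 and 56 of 35617 genes in cKO IL, at 1009, 32 and 31 in WT IL, at 2998, 921 and 1195 in the CL of cKO, and at 1348, 2568 and 3282 in the CL of WT. In the cKO IL library of 44907863 counts it took 0.804% of all counts. The antisense gene Gm29233 shares exonic bases with Thbs1, and the strand setting of the counting is not given in the sources used here, so reads of the shared stretch cannot be assigned.

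Plaur, which encodes the urokinase receptor (chr7:24462484-24475968, + strand), rose in both genotypes. It was at 281, 397 and 255 CPM in cKO IL against 33.5, 78.7 and 71.9 CPM in cKO CL. It was at 131, 139 and 228 CPM in WT IL against 43.3, 26.2 and 12.3 CPM in WT CL. No IL library overlapped a CL library in either genotype, and here the WT IL library of 18425180 counts was close to another WT IL library. The log2 fold change of IL over CL was 2.34 ± 0.49 in cKO (SE, adjusted p = 0.0197, edgeR) and 2.60 ± 0.50 in WT (SE, adjusted p = 0.036, edgeR). The Plaur promoter is the window with the AP-1 letters above.

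F10, which encodes factor X, was at 194, 195 and 67.8 CPM in cKO IL against 10.1, 12.3 and 5.75 CPM in cKO CL. It was at 7.57, 45.9 and 85.0 CPM in WT IL against 3.95, 8.25 and 5.87 CPM in WT CL. The cKO hemispheres did not overlap, whereas in WT the IL library of 18425180 counts fell inside the CL range. F10 rose by 4.02 ± 0.63 on the log2 scale in cKO (SE, adjusted p = 0.0102, edgeR) and by 2.94 ± 0.65 in WT (SE, adjusted p = 0.0492, edgeR). The WT value is the nearest of all called members to the threshold.

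F7, which encodes factor VII, was at 97.7, 131 and 125 CPM in cKO IL against 9.52, 1.48 and 4.99 CPM in cKO CL. It was at 0.932, 44.2 and 226 CPM in WT IL against 0.970, 6.75 and 11.4 CPM in WT CL. The cKO IL libraries lay together and all above cKO CL, while the 3 WT IL libraries spread from the lowest level of WT CL to above every WT CL library. The lowest WT IL value (16 counts) and the lowest WT CL value (13 counts) were too close to be put in order. The log2 fold change was 4.47 ± 0.97 in cKO (SE, adjusted p = 0.0323, edgeR) and 3.86 ± 0.98 in WT (SE, adjusted p = 0.0887, edgeR), so F7 passed the test in cKO and did not in WT. The difference between these responses was itself 0.60, with a 95% interval of -2.26 to 3.46. Although F7 and F10 are neighbours in the genome, the ratio of F7 to F10 in CPM per kb of exon was 0.738, 0.986 and 2.70 in cKO IL and 0.181, 1.41 and 3.90 in WT IL, so they did not keep 1 ratio. In CL the ratio was 1.38, 0.177 and 1.28 in cKO and 0.360, 1.20 and 2.86 in WT.

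**Figure D2:**
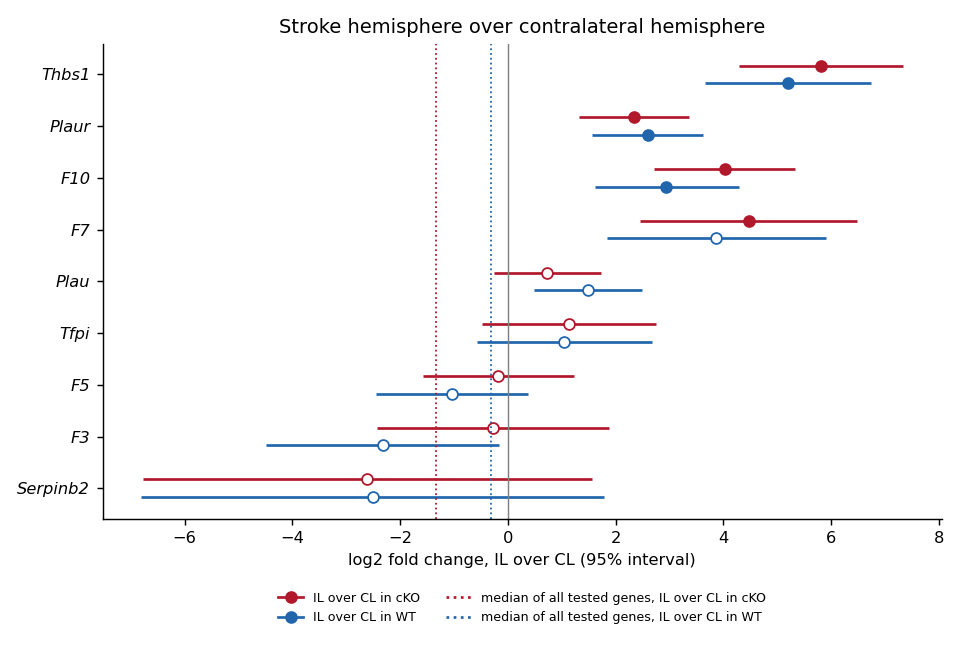
Log2 fold change of IL over CL for each member in cKO (red) and WT (blue), with the 95% interval of the edgeR fit. Filled points passed the test at an adjusted p under 0.05, and dotted lines mark the median of all tested genes, at -1.33 in cKO and -0.31 in WT. The 7 filled points are Thbs1, Plaur and F10 in both genotypes and F7 in cKO.

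Plau, Tfpi, F5, F3 and Serpinb2 passed the test in neither genotype. Plau, which encodes urokinase (chr14:20836660-20843385, + strand), was at 96.0, 114 and 172 CPM in cKO IL against 53.6, 63.8 and 113 CPM in cKO CL, while it was at 126, 109 and 151 CPM in WT IL against 64.1, 52.0 and 22.0 CPM in WT CL. The WT hemispheres did not overlap and the cKO hemispheres did, by 1 CL library. Its log2 fold change was 0.73 in cKO (95% interval -0.26 to 1.73) and 1.48 in WT (0.48 to 2.48, adjusted p = 0.132, edgeR). Plaur and Plau encode partners, and Plaur exceeded Plau per kb of exon in cKO IL (ratios 2.65, 3.16 and 1.34) but stood at 0.565, 1.12 and 0.576 of it in cKO CL. In WT the ratios were 0.938, 1.16 and 1.36 in IL and 0.611, 0.456 and 0.507 in CL.

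Tfpi, the inhibitor of the tissue factor pathway (chr2:84432855-84476775, - strand), was at 24.3, 19.2 and 25.3 CPM in cKO IL against 8.38, 9.44 and 13.5 CPM in cKO CL, while it was at 9.44, 13.4 and 27.3 CPM in WT IL against 15.1, 8.40 and 0.293 CPM in WT CL. The cKO hemispheres did not overlap and the WT ones did. The WT CL value of 0.293 CPM is 1 count in the library of 2091512 counts. The log2 fold change was 1.13 in cKO (95% interval -0.48 to 2.74) and 1.05 in WT (-0.58 to 2.67). F5, which encodes factor V (chr1:164151838-164220277, + strand), was at 19.4, 40.5 and 13.6 CPM in cKO IL against 22.3, 14.7 and 45.9 CPM in cKO CL, while it was at 5.42, 11.3 and 15.5 CPM in WT IL against 7.46, 16.5 and 42.5 CPM in WT CL. Its hemispheres overlapped in both genotypes, with log2 fold changes of -0.18 in cKO (-1.58 to 1.22) and -1.03 in WT (-2.44 to 0.37). F5 shares 262 exonic bases with the antisense gene Gm16548, which the counting may not separate.

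F3, which encodes tissue factor (chr3:121723537-121735048, + strand), was at 4.98, 1.90 and 8.88 CPM in cKO IL against 1.61, 10.3 and 7.22 CPM in cKO CL, while it was at 7.34, 2.58 and 2.22 CPM in WT IL against 55.8, 1.50 and 2.93 CPM in WT CL. The library at 55.8 CPM is the WT CL library of 12647526 counts, and in the other 11 libraries F3 did not exceed 10.3 CPM. The log2 fold change was -0.28 in cKO (95% interval -2.43 to 1.87) and -2.32 in WT (-4.48 to -0.17, adjusted p = 0.261, edgeR), and in WT it was 1.18 without that library. In that library Thbd (thrombomodulin) was at 349 CPM, against at most 81.2 CPM elsewhere, and the summed level of 6 endothelial markers was 686 CPM against 69.2 to 482 CPM in the other libraries. The summed level of 5 astrocyte markers was also highest in that library, at 322 CPM against 36.7 to 121 CPM in the other libraries. The part of endothelial cells or astrocytes in the F3 value was not tested. Serpinb2 (chr1:107511423-107535478, + strand) was low, at most 3.82 CPM in any library, and uneven between the libraries of a group. It had 4, 0 and 18 counts in cKO IL against 57, 10 and 0 counts in cKO CL, and 8, 1 and 1 counts in WT IL against 0, 7 and 8 counts in WT CL. A count of 0 allows up to 0.0888 CPM in the cKO IL library, 0.120 CPM in the cKO CL library and 0.224 CPM in the WT CL library concerned, counting error only. Serpinb2 also shares 291 exonic bases with Serpinb10 on the same strand, and no difference between hemispheres was detectable at this depth.

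Per kb of exon, which allows levels of different genes to be compared, the order of the means in cKO IL was Thbs1 (1391 ± 770), Plaur (119 ± 28.8), F7 (63.3 ± 9.49), F10 (55.8 ± 26.8), Plau (53.8 ± 16.9), Tfpi (4.20 ± 0.607), F5 (3.29 ± 1.90), F3 (2.08 ± 1.38) and Serpinb2 (0.0987 ± 0.122 CPM per kb, SD, n = 3 each). In this order F7 and F10, F10 and Plau, Tfpi and F5, and F5 and F3 lay within 1 SD of each other. In cKO CL the order was Plau (32.4 ± 13.4), Thbs1 (24.8 ± 14.7), Plaur (23.4 ± 9.31), F5 (3.72 ± 2.19), F10 (3.44 ± 1.22), F7 (2.87 ± 2.17), F3 (2.53 ± 1.75), Tfpi (1.91 ± 0.498) and Serpinb2 (0.620 ± 0.879 CPM per kb, SD, n = 3 each). There Plau, Thbs1 and Plaur lay within 1 SD of each other, and so did each neighbouring pair from F5 to Tfpi. In WT IL the means ran from 668 ± 649 CPM per kb for Thbs1 to 0.0805 ± 0.102 for Serpinb2, and in WT CL from 19.5 ± 9.17 CPM per kb for Plau to 0.482 ± 0.501 for Serpinb2 (SD, n = 3 each).

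The libraries in which Thbs1, F10 and F7 were high were also those with high levels of monocyte genes, although the bead selection on P2RY12, a microglial receptor, is meant to leave monocytes out. Of 7 genes used as markers of infiltrating monocytes, 3 rose in IL over CL in cKO and 1 in WT. Their summed level was 6757 to 17108 CPM in cKO IL and 509 to 7131 CPM in WT IL, against 216 to 569 CPM in cKO CL and 125 to 6020 CPM in WT CL. Fn1 supplied most of it, and without Fn1 the sums were 375 to 1570 CPM in cKO IL and 56.8 to 578 CPM in WT IL, against 56.8 to 76.1 CPM in cKO CL and 44.3 to 106 CPM in WT CL. Plac8 was at 0 in 2 WT CL libraries and Chil3 in 1 of them. Ccr2, the chemokine receptor of inflammatory monocytes, singled out from this list after its values were seen, was at 726, 285 and 136 CPM in cKO IL against 16.1, 8.23 and 31.2 CPM in cKO CL, while it was at 8.16, 103 and 412 CPM in WT IL against 16.7, 10.5 and 12.3 CPM in WT CL. The WT IL library with CL-like Thbs1, F10 and F7 was thus also the one with CL-like Ccr2, while its Plaur (131 CPM) and Plau (126 CPM) were above every WT CL library. In this bulk material, more cells of a type and more RNA per cell cannot be told apart, and the part of monocytes in these members' levels was not tested.

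**Figure D3:**
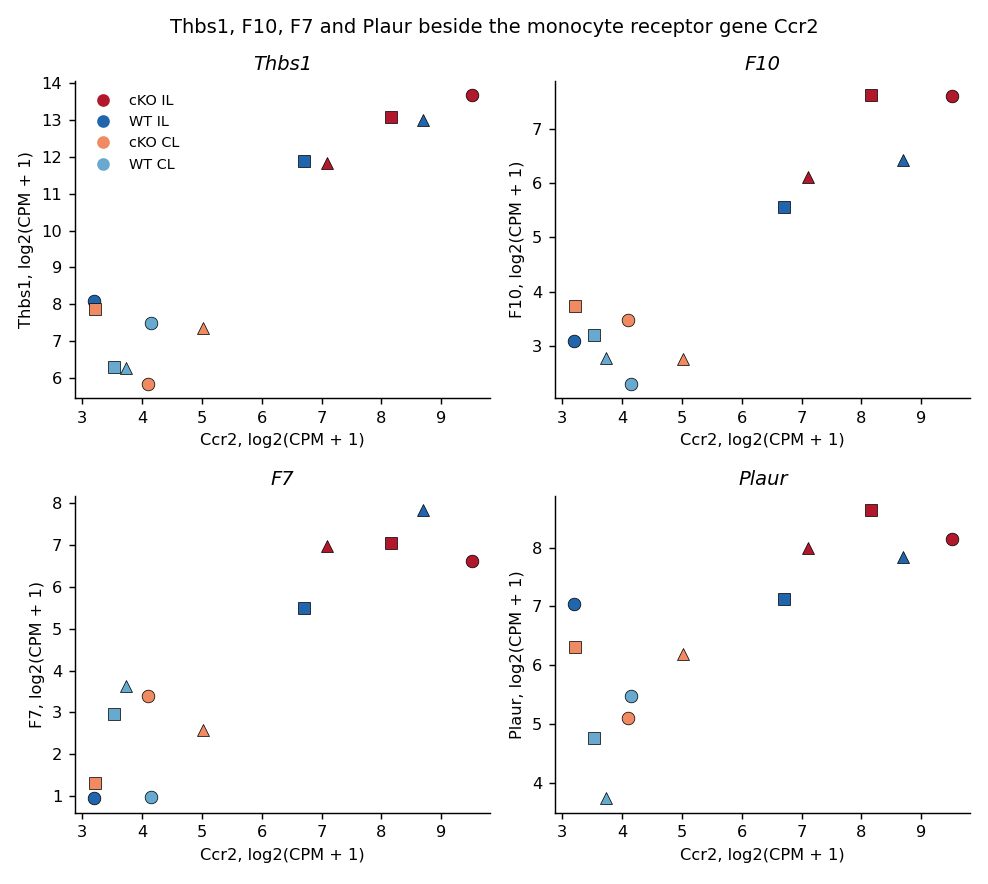
Thbs1, F10, F7 and Plaur against Ccr2 in the 12 libraries, both as log2(CPM + 1). Colours give the group and the shape gives the library as in the plot of levels by library. The WT IL library at 8.16 CPM of Ccr2 lies among the CL libraries for F10 and above them for Plaur. For Thbs1 it lies just above them (271 CPM against at most 234 CPM). For F7 it lies at their lowest level (0.932 CPM, which is 16 counts, against at least 0.970 CPM, which is 13 counts).

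Markers of other cells that could carry these transcripts were measured as well. Platelets hold much thrombospondin-1, and the summed level of 6 platelet genes was 8.63 to 23.7 CPM in cKO IL and 14.8 to 67.4 CPM in WT IL, against 41.4 to 73.1 CPM in cKO CL and 21.9 to 43.4 CPM in WT CL. Pf4, a chemokine gene of platelets that border-associated macrophages also express, is counted here with the macrophage genes. It was at 70.8, 45.3 and 7.90 CPM in cKO IL against 4.76, 6.53 and 4.95 CPM in cKO CL, and at 3.67, 10.4 and 27.0 CPM in WT IL against 15.1, 5.70 and 3.52 CPM in WT CL. Pf4 rose in cKO by 2.93 ± 0.77 on the log2 scale (SE, adjusted p = 0.0499, edgeR) and did not pass in WT (0.74 ± 0.78). The part of platelets in the Thbs1 level was not tested. Of 6 genes of border-associated macrophages, 2 rose in cKO and 0 in WT, with sums of 480 to 1279 CPM in cKO IL and 196 to 734 CPM in WT IL, against 180 to 290 CPM in cKO CL and 97.6 to 311 CPM in WT CL (Lyve1 was at 0 in 1 WT CL library). The 7 neutrophil genes summed to at most 59.5 CPM in any library and 0 of them passed the test in either genotype. The 7 microglial genes summed to 3632 to 7060 CPM in cKO IL and 4042 to 9244 CPM in WT IL, against 4739 to 8947 CPM in cKO CL and 6294 to 10106 CPM in WT CL.

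The genotypes were compared within each hemisphere, which addresses what the deletion of Nhe1 did to these genes. Every cKO IL library held more counts (43961276 to 47256174) than every WT IL library (18425180 to 25166928), so in IL depth went with genotype. In IL, 0 of the 9 members passed the test in cKO over WT, as did 0% of all tested genes, and 1 member (F10) had an unadjusted p under 0.05, where 2.36% of all tested genes did (also 2.36% with the fold change over 2). In CL, 0 members passed, as did 0% of all tested genes, and 1 member (Plaur) had an unadjusted p under 0.05, where 4.72% did (4.71% with the fold change over 2). F10 averaged 152 ± 73.1 CPM in cKO IL and 46.1 ± 38.7 CPM in WT IL (SD, n = 3 each), and the groups overlapped by 1 library. Its log2 fold change in IL was 1.72 (95% interval 0.42 to 3.03, adjusted p = 0.997, edgeR). Plaur averaged 311 ± 75.3 CPM in cKO IL and 166 ± 54.2 CPM in WT IL (SD, n = 3 each), and every cKO IL library lay above every WT IL library, as was true of 4.83% of all tested genes. Its log2 fold change was 0.91 in IL (95% interval -0.11 to 1.93) and 1.16 in CL (0.13 to 2.19, adjusted p = 1, edgeR).

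Thbs1 averaged 8448 ± 4677 CPM in cKO IL and 4055 ± 3939 CPM in WT IL (SD, n = 3 each), with a log2 fold change of 1.06 whose 95% interval ran from -0.47 to 2.59. For F7 the value in IL was 0.38 (95% interval -1.60 to 2.37), and it was -0.20 without the WT IL library of 18425180 counts. F5 gave 1.19 in IL (-0.21 to 2.59), Tfpi 0.46 (-1.15 to 2.06), F3 0.38 (-1.78 to 2.53), Serpinb2 0.30 (-3.99 to 4.59) and Plau -0.01 (-1.01 to 0.98). In CL the members other than Plaur lay between -1.66 (F3) and 0.73 (Plau), and F3 turned to 1.73 without the WT CL library of 12647526 counts. The median over the members was 0.46 in IL and 0.40 in CL, beside -0.24 and 0.23 over all tested genes.

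**Figure D4:**
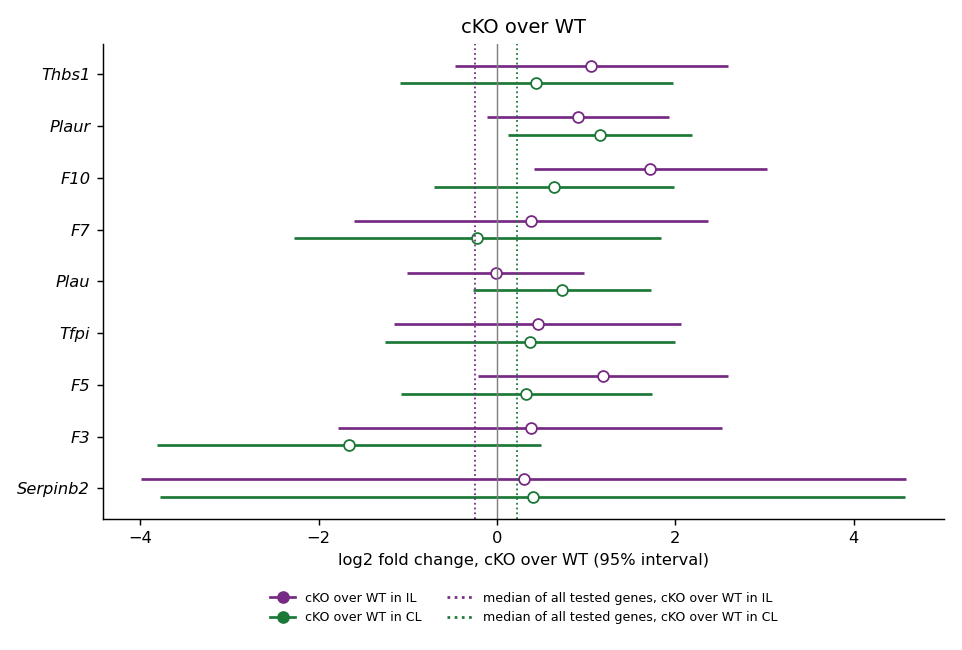
Log2 fold change of cKO over WT for each member in IL (purple) and CL (green), with the 95% interval of the edgeR fit. Open points did not pass the test, and dotted lines mark the median of all tested genes, at -0.24 in IL and 0.23 in CL. All 18 points are open.

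Whether the hemispheres differed by a different amount in the genotypes was tested with the interaction, the IL over CL change in cKO minus that in WT. It passed for 0 of the 9 members and 0% of all tested genes, and 0 members had an unadjusted p under 0.05, where 3.80% of all tested genes did. The difference on the log2 scale was 1.08 for F10 (95% interval -0.79 to 2.95), 0.62 for Thbs1 (-1.55 to 2.78), -0.25 for Plaur (-1.70 to 1.19) and -0.75 for Plau (-2.16 to 0.66).

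The wider clotting and fibrinolysis machinery was described with 45 further genes in 7 lists. In IL over CL 2 of the 45 rose in cKO, where 2.94% of all tested genes rose, and 0 rose in WT, where 0.538% of all tested genes did. In neither genotype did any of the 45 fall. F13a1, which encodes the A subunit of the fibrin-crosslinking factor XIII and is made by macrophages, was at 932, 645 and 311 CPM in cKO IL against 40.3, 77.7 and 51.1 CPM in cKO CL, while it was at 57.9, 181 and 494 CPM in WT IL against 48.3, 27.3 and 51.6 CPM in WT CL. No IL library overlapped a CL library in either genotype, and the lowest WT IL value was again in the library of 18425180 counts. The log2 fold change of F13a1 was 3.48 ± 0.58 in cKO (SE, adjusted p = 0.0109, edgeR) and 2.53 ± 0.58 in WT (SE, adjusted p = 0.0556, edgeR). Serpine2, which encodes protease nexin-1, an inhibitor of thrombin and urokinase, was at 117, 63.4 and 254 CPM in cKO IL against 29.0, 22.3 and 48.9 CPM in cKO CL, while it was at 29.2, 85.6 and 73.5 CPM in WT IL against 31.4, 31.5 and 42.2 CPM in WT CL. It rose in cKO without overlap (log2 fold change 2.12 ± 0.54, SE, adjusted p = 0.0391, edgeR) and did not pass in WT, where the hemispheres overlapped (0.84 ± 0.54).

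By list, the 17 clotting factors and fibrinogen chains held 3 called genes in cKO (F7, F10 and F13a1) and 1 in WT (F10), with a median log2 fold change of -1.17 in cKO and -0.94 in WT. Prothrombin, encoded by F2, did not exceed 11.9 CPM in any library. Of the 11 clotting inhibitors 0 passed, and the most abundant was Pros1 (protein S), at 98.2 to 182 CPM in cKO IL against 41.0 to 94.4 CPM in cKO CL. Of 4 protease-activated receptors, the family of the thrombin receptors, 0 passed in either genotype, and the most abundant, F2rl2, did not exceed 18.8 CPM. Of the 8 plasminogen activators, plasminogen and receptors, Plaur was the only one that passed, in both genotypes, with list medians of 1.09 in cKO and 1.19 in WT. Lrp1, which clears complexes of urokinase and its inhibitors, was at 9462 to 13385 CPM in cKO IL against 3903 to 7803 CPM in cKO CL, with a log2 fold change of 1.17 (adjusted p = 0.186, edgeR). Anxa2, a plasminogen-binding protein, gave 3.90 in cKO (adjusted p = 0.0544, edgeR) and 1.30 in WT. Of 6 fibrinolysis inhibitors Serpine2 passed in cKO and 0 in WT. Of 5 thrombospondins Thbs1 alone passed in each genotype, and Thbs2 was at 6.60 to 23.2 CPM in cKO IL against 7.58 to 16.6 CPM in cKO CL. Of 3 vitamin K cycle genes, which serve the carboxylation of factors VII and X, 0 passed in either genotype. In both genotype comparisons and in the interaction 0 of the 45 genes passed.

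The genes whose pattern over the 12 libraries was most like each member were found by the smallest root mean square difference of centred log2 CPM, among 10335 genes of at least 10 CPM. For Thbs1 they were Tgfbi (0.53), Emp1 (0.81) and Plin2 (0.82), beside a spread of Thbs1 itself of 2.91 on that scale. For F10 they were Ccr1 (0.42), Gda (0.51) and Rtraf (0.55), beside a spread of 1.97. F7 had less close neighbours, Hal (0.83), Ms4a7 (1.07) and Cxcr4 (1.09), beside a spread of 2.71. Plaur was nearest to Snx24 (0.26), Noct (0.32) and Mxd1 (0.33), beside a spread of 1.49, and Plau to Irf8 (0.25), Apbb2 (0.27) and Stx16 (0.29), beside a spread of 0.80. Tfpi was nearest to Pja2 (0.17), beside a spread of 1.55, and F5 to Grap2 (0.48), beside a spread of 0.92. Tfpi was at 0.293 CPM (1 count) in the WT CL library of 2091512 counts and at 8.38 to 27.3 CPM in the other libraries. How far that library sets the spread of Tfpi and its closeness to Pja2 was not tested. These distances are descriptions over libraries that share groups and depth, and F3 and Serpinb2, under 10 CPM on average, were left out.

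The calls of the stroke response rested on few libraries. In cKO, leaving out any 1 of the 3 CL libraries left 0 members and 0 of all tested genes called, with adjusted p from 0.073 to 0.149 over F7, F10, Plaur and Thbs1, while their log2 fold changes stayed between 2.34 and 6.28. Without the cKO IL library of 44907863 or of 47256174 counts F10 and Thbs1 were called, and without that of 43961276 counts F10, Plaur and Thbs1. In WT, 0 members and 0 of all tested genes were called without the IL library of 23087202 counts, and Thbs1 alone without the IL library of 25166928 counts or the CL library of 2091512 counts. Without the WT CL library of 12647526 counts or of 5155202 counts Plaur and Thbs1 were called. Without the WT IL library of 18425180 counts the call was F7, F10, Plaur and Thbs1, the same members as without it and the WT CL library of 12647526 counts together. A fit chosen after seeing the data, without that IL library and the WT CL library of 2091512 counts, called these 4 members higher and F3 lower. IL and CL libraries share numbers in the column names, and the sources do not say which of them come from 1 mouse. With that number as a block, 0 members were called in WT (adjusted p = 0.166 for Thbs1, 0.168 for F10 and 0.133 for Plaur, edgeR) and the same 4 in cKO. With voom quality weights 0 members were called in WT as well (adjusted p = 0.123 for Thbs1, 0.286 for F10 and 0.115 for Plaur, limma). In both genotypes every IL library held more counts than every CL library, so depth went with hemisphere. After thinning to the smallest library Thbs1 alone was called in cKO, and Plaur and Thbs1 in WT.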

How the data were processed

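The deposited file holds raw read counts per gene, whole numbers and not scaled. The authors made the libraries with a stranded total RNA kit, filtered out ribosomal and mitochondrial reads, and used the STAR aligner (version 2.5.3a, run within Partek Flow, version 8.0) with the mm10 genome. The annotation and strand setting of the counting are not given in the sources used here. The columns name a group and a number, not a GEO sample, so each group has 3 libraries without further identity. Totals ran from 2091512 to 47256174 counts, and intervals of counts of 0 (3 counts) cover counting error only. The members and gene lists were chosen with earlier results of these data known.

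Genes were kept by edgeR's filterByExpr, scaled by TMM (factors 0.618 to 1.641) and tested in 1 quasi-likelihood fit of all 12 libraries with a mean per group (edgeR 4.0.16, R 4.3.3, two-sided). Benjamini-Hochberg adjustment covered all 35674 genes. Standard errors and 95% intervals come from this fit. The 9 members are named throughout, and other listed genes where they passed the test in at least 1 comparison or were among the 3 most abundant of their list. Positions and exon lengths are from GENCODE vM21, which held 53620 of the gene IDs, and promoters from RefSeq. 7 of the 9 members had a promoter there, and Plau and Thbs1 are named only. The alternatives tried were voom with quality weights (limma 3.58.1), DESeq2 1.42.0, RLE and total count scaling, no filter, 10 counts in every library, the 6 libraries of a comparison alone, thinning to the smallest library, the number in the column name as a block, each library left out, the study's thresholds, and 2 fits added after seeing the data. The test was checked on simulated counts. The level of the targeted gene and 1 gene of the lists are not reported here.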

Additional observations from a re-analysis of the deposited data

How the results depend on the processing

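Of 686 log2 fold changes of the 9 members under the alternatives, 581 kept their direction and side of the threshold, 42 lost the call, 9 gained one and 54 changed sign. 0 of the 54 belonged to a member called in that comparison. The scaling moved the median of all tested genes from -1.33 (TMM) to -1.56 (RLE) and -2.26 (total counts) in IL over CL in cKO, and from -0.31 to -0.49 and -0.82 in WT, and Thbs1 and Plaur stayed called higher in both genotypes under each of the 3. Over all tested genes, the calls higher and lower were 1050 and 183 in cKO with TMM, 629 and 224 with RLE, and 301 and 1127 with total counts, and in WT 192 and 25, 66 and 15, and 24 and 18.

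The number of members called in IL over CL is given with the share of all tested genes called in the same fit. In WT, 3 (0.608%) was 0 with voom quality weights (0%), 1 with the 6 libraries alone (0.289%), 6 by the study's thresholds (18%), 5 without the IL library of 18425180 counts and the CL library of 2091512 counts (5.88%), and 0 to 4 when single libraries were left out (0% to 2.92%). In cKO, 4 (3.46%) was 1 after thinning (1.2%), 6 with the 6 libraries alone (31.2%), and 0 to 3 when single libraries were left out (0% to 0.956%). In cKO over WT, 0 was 4 in IL with voom quality weights (F7, F10, Plaur and Thbs1, where 11.9% of all genes were called) and 1 by the study's thresholds in IL and in CL. The interaction stayed at 0. The cause of these changes was not tested.

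Libraries of IL and CL share numbers in the columns, which the sources do not tie to an animal. The deviations of same-numbered libraries correlated at 0.21, 0.06 and 0.07 in cKO and -0.13, 0.15 and -0.06 in WT. With 3 libraries in a group these values cannot show whether the numbers mark pairs. The main fit took the libraries as independent. With the replicate block 0 members were called in WT (0.0028% of all tested genes) and 4 in cKO (2.21%), and Tfpi in the interaction was -0.23. The genotypes share no number and could not be blocked.

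Signs changed as follows (log2 fold change). In IL over CL in cKO, F3 was 0.03 without the filter and 0.01 with the 6 libraries, F5 0.22 and 0.18, and Plau -0.11 with total counts and -0.34 after thinning. In cKO over WT in IL, Plau was 0.11 with voom and 0.13 without the filter, Serpinb2 -0.03 with total counts and Tfpi -0.11 after thinning. In CL, F3 was 0.63 and Serpinb2 -1.63 with voom, and F5 -0.03 and F10 -0.34 after thinning. In the interaction, F3 was -0.07 and Serpinb2 2.02 with voom, Serpinb2 0.10 without the filter, and Tfpi -0.31 with total counts and -0.62 after thinning.

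With single libraries left out, the values that changed sign ran, in IL over CL, from -3.07 to 1.18 (F3) and -1.39 to 0.03 (F5) in WT, and from -0.89 to 0.24 (F3), -0.75 to 0.40 (F5) and -4.23 to 0 (Serpinb2) in cKO. In cKO over WT in IL they ran from -0.24 to 1.13 (F3), -0.20 to 2.38 (F7), -0.29 to 0.15 (Plau) and -1.32 to 2.08 (Serpinb2), and in CL from -2.21 to 1.73 (F3), -0.25 to 1.17 (F5), -0.76 to 0.40 (F7), -1.78 to 1.33 (Serpinb2), -0.23 to 1.22 (Tfpi) and -0.03 to 1.11 (Thbs1). In the interaction they ran from -1.17 to 2.79 (F3), -0.69 to 0.27 (Plaur), -1.72 to 2.24 (Serpinb2) and -0.62 to 0.83 (Tfpi).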
